A study of Camellia sinensis with 6 samples.

Results

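Anthocyanins are the red and purple flavonoid pigments of plant vacuoles. They are made from phenylalanine through the flavonoid pathway, modified with sugars and acyl groups in the cytosol, and moved into the vacuole. In Arabidopsis a MYB factor, a bHLH factor and a WD40 protein together switch on the late enzymes and the carrier. In tea shoots the same precursors feed the catechins, which are far more abundant than the pigments. The 3 gene models described here carry the names of a carrier, a switch and a decorating enzyme of this pathway. They are glutathione S-transferase F12 (GSTF12, evm.TU.Cha03g014090), transcription factor MYB75 (evm.TU.Cha01g017900) and an anthocyanin malonyltransferase (evm.TU.Cha13g012390). Names are those of the closest database protein in the deposited annotation, not tests of function in tea, and identifiers are given below without the prefix evm.TU. The genes were picked from a table of 40118 loci because their counts were much lower at low temperature, so their own differences between temperatures are given as a description, with no test.

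RNA was sequenced from young shoots of Camellia sinensis, genotype 'Zhonghuang 2', a tea cultivar whose new growth yellows in the cold. Both groups share this genotype, a first period of 1 month at 22 °C under fluorescent light of 200 µmol per square metre per second, and 12 h of light alternating with 12 h of dark. The high-temperature group, the control, stood at 26 °C in the light and 22 °C in the dark and gave green shoots, while the low-temperature group stood at 18 °C and 14 °C and gave yellowed shoots. Each group has 3 libraries and was grown in its own climate chamber, and effects of chamber and temperature cannot be told apart. The labels do not state that libraries stem from different plants, so a p-value here reflects only variation between libraries, which may be technical. In whole shoots, fewer cells of a type and less RNA per cell cannot be told apart.

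Library totals ranged from 15202546 to 15642015 counts. A count of 3 equals 0.180 to 0.204 CPM (a count divided by the library's scaled total, on the usual CPM scale). High-temperature replicate 2 stood apart from its group. Its mean chi-square per gene was 26.5 against replicate 1 and 23.0 against replicate 3, while replicates 1 and 3 gave 5.40. Markers of green leaf tissue, the chlorophyll-binding proteins and the Rubisco small chain, were present at 36132 to 49251 CPM in sum at high temperature and 30213 to 31190 CPM at low temperature, and none of the 25 gene models was at 0 throughout. Of the 23 tested, 14 fell and 1 rose (edgeR quasi-likelihood test, adjusted p under 0.05). Over all tested gene models 9.65% fell and 9.27% rose. Epidermis and cuticle markers summed to 1699 to 1908 CPM against 1819 to 2157 CPM, with 1 of 17 lower and 3 higher and none of 20 at 0, and vascular markers to 105 to 147 against 106 to 143 CPM, with none of 7 called (0 by edgeR and 0 by DESeq2, but 3 at an unadjusted p under 0.05) and none of 9 at 0. Dividing-cell markers summed to 926 to 943 CPM against 831 to 884 CPM, with 2 of 37 lower and 2 higher and 2 of 60 at 0. Casparian strip proteins, a root marker, summed to 110 to 127 CPM against 166 to 202 CPM, with 1 of 2 tested members higher and none of 4 at 0. The called member (Cha06g017890) made up most of that sum, with means of 112 and 182 CPM. The other tested member had 5.35 and 6.64 CPM. The part of these differences in the values below was not tested.

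GSTF12 names a glutathione S-transferase of the phi class, the Arabidopsis protein TRANSPARENT TESTA 19, which binds anthocyanins and is needed to carry them to the vacuole. The gene model lies on assembly sequence 3 from 136532741 to 136639790, plus strand. It had 7424, 7660 and 6456 counts in high-temperature replicates 1, 2 and 3, and 112, 104 and 98 counts in the low-temperature replicates. Scaled by library, with trimmed mean of M values (TMM), these were 505, 459.7 and 424 CPM against 7.47, 6.65 and 6.35 CPM. The groups did not overlap, and the lowest high-temperature library was 56.8 times the highest low-temperature library. The group means were 463 ± 40.2 and 6.82 ± 0.58 CPM (SD, n = 3), a 67.8-fold difference. By mean CPM the gene ranked 226 of 40118 loci in green shoots and 16064 in yellowed shoots. It had the fifth largest fall in log2 terms among 26767 tested gene models (rank 5), and rank 2 among the 14144 with at least 10 CPM at high temperature.

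MYB75 is the Arabidopsis R2R3 MYB factor also known as PRODUCTION OF ANTHOCYANIN PIGMENT 1, which activates late pigment genes. The gene model of that name (sequence 1, 170084785 to 170101550, plus strand) had 540, 549 and 568 counts at high temperature and 40, 66 and 30 at low temperature. These were 36.7, 32.9 and 37.3 CPM against 2.67, 4.22 and 1.94 CPM. The high-temperature libraries lay close together, while low-temperature replicate 2 was the highest of its group, and the groups did not overlap. The means were 35.7 ± 2.37 and 2.94 ± 1.16 CPM, a 12.1-fold difference. The coefficient of variation was 6.65% at high temperature, the narrowest spread of the 3 genes there, and 39.5% at low temperature, the widest. The fall ranked 32 among all tested gene models and 6 among those with at least 10 CPM at high temperature.

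The malonyltransferase is named after an enzyme of scarlet sage (Salvia splendens) that adds a malonyl group to the already malonylated 5-O-glucoside of a pelargonidin pigment, a late decoration. The gene model (sequence 13, 99828698 to 99831171, plus strand) had 361, 331 and 359 counts at high temperature against 66, 54 and 63 at low temperature. These were 24.5, 19.9 and 23.6 CPM against 4.40, 3.45 and 4.08 CPM. Replicate 2 was the lowest of each group, and the groups did not overlap. The means were 22.7 ± 2.47 and 3.98 ± 0.484 CPM, a 5.70-fold difference, with rank 104 among all tested gene models and rank 19 among those with at least 10 CPM at high temperature. For each of the 3 genes the groups were apart and lower in the cold, as in 18.4% of all tested gene models, but this is how they were chosen and nothing is read from it.

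**Figure D1:**
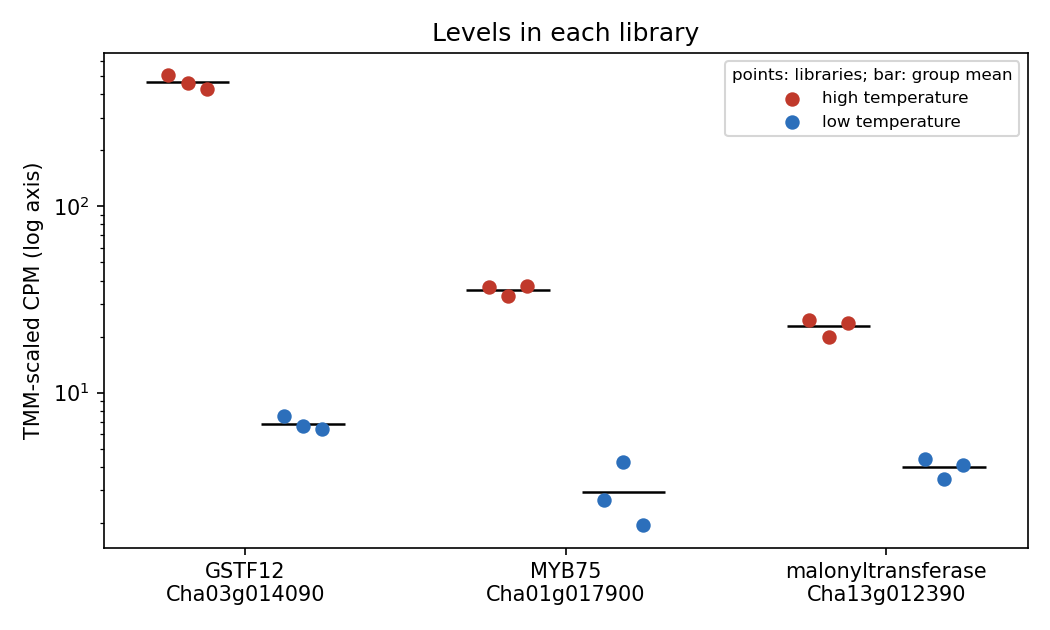
TMM-scaled CPM of the 3 genes in each library, on a log axis; red points are high-temperature and blue points low-temperature libraries, and bars are group means. GSTF12 went from 463 to 6.82 CPM, MYB75 from 35.7 to 2.94 CPM and the malonyltransferase from 22.7 to 3.98 CPM, and no group overlapped its counterpart.

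The log2 changes of the 3 genes are given with their range when each library is left out in turn, as a description of the change they were chosen for. For GSTF12 the change was -6.08 ± 0.18 (SE), between -6.15 and -6.02 without 1 library. For MYB75 it was -3.59 ± 0.22, between -3.94 and -3.36, and for the malonyltransferase -2.51 ± 0.20, between -2.59 and -2.41. Without high-temperature replicate 2, the library that stood apart, the changes were -6.09, -3.65 and -2.59. That library was in the middle of its group for GSTF12 and the lowest of its group for the other two.

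Levels can be compared between genes only per length, for which the deposited FPKM (counts scaled by coding length and by library) were used. At high temperature GSTF12 had 559 ± 49.7 FPKM, MYB75 36.6 ± 2.73 and the malonyltransferase 27.3 ± 3.20 FPKM (SD, n = 3). At low temperature they had 8.29 ± 0.692, 3.04 ± 1.19 and 4.82 ± 0.588 FPKM. In green shoots the GSTF12 level was 13.4 to 16.4 times that of MYB75, and in yellowed shoots 1.85 to 3.85 times. Relative to the malonyltransferase the GSTF12 level was 18.0 to 23.2 times higher in green shoots and 1.56 to 1.93 times in yellowed shoots. MYB75 exceeded the malonyltransferase in every high-temperature library, by 1.28 to 1.41 times, whereas at low temperature the ratio ran from 0.406 to 1.04, so that their order there was not the same in all libraries.

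The gene models differ in build. GSTF12 has 813 coding bases spread over 107050 bases of the assembly, so that 0.759% of its span is coding. MYB75 has 957 coding bases over 16766 bases (5.71%), and the malonyltransferase 816 over 2474 bases (33.0%). The malonyltransferase model is the shortest of the 11 annotated gene models with a malonyltransferase name, the other 10 having 960 to 1704 coding bases. All 3 lie on the plus strand of different sequences, and no other locus of the table overlaps any of them.

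Same-name gene models give the background for each. No other gene model is named GSTF12. Among the 4 other phi-class (class F) enzymes, all tested, none fell (0 also by DESeq2 and at an unadjusted p under 0.05) and 1 rose, where 9.27% of all 26767 tested gene models rose and 9.65% fell (edgeR quasi-likelihood test, Benjamini-Hochberg adjusted p under 0.05). The class F median log2 change was -0.06, beside -0.01 over all tested gene models. The most abundant, an F9 enzyme (Cha10g007860), had 408 ± 139 CPM at high and 347 ± 22.2 CPM at low temperature (log2 change -0.23 ± 0.21, adjusted p = 0.485). High-temperature replicate 2 was its lowest library, at 248 CPM against 489 and 488 CPM in replicates 1 and 3. Without replicate 2 this enzyme was called lower (edgeR, adjusted p = 0.00108), so its lack of a call rested on that library. F11 (Cha09g000900) had 58.1 ± 1.799 and 52.2 ± 3.01 CPM (adjusted p = 0.429), and the other F9 enzyme (Cha10g007850) had 58.6 ± 13.7 and 60.3 ± 3.01 CPM (adjusted p = 0.884). F13 (Cha10g004850) rose from 13, 7 and 4 counts to 42, 49 and 38 counts, or from 0.522 ± 0.323 to 2.80 ± 0.335 CPM (log2 change 2.41 ± 0.51, adjusted p = 0.00302). GSTF12 held 47.6% ± 8.11 of all class F counts in green shoots and 1.45% ± 0.111 in yellowed shoots (SD, n = 3). Of the counts of all 90 loci named as glutathione S-transferases it held 16.3% ± 1.57 and 0.345% ± 0.0182, while the summed level of the rest was 2378 ± 191 and 1971 ± 99.6 CPM.

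MYB75 has 2 same-name gene models. The first (Cha03g018100, sequence 3, 161778803 to 161781276) was rarer and fell too, from 34, 43 and 18 counts to 3, 9 and 9 counts. The means were 2.03 ± 0.741 and 0.453 ± 0.219 CPM and the log2 change was -2.14 ± 0.57 (adjusted p = 0.0134). The call was lost without low-temperature replicate 1 (adjusted p = 0.0595). The second (Cha01g017880, sequence 1, 169590067 to 169593919, minus strand) had a single count in 1 library and was not tested. The main MYB75 model thus held 94.5% ± 2.05 of the counts under this name in green shoots and 86.0% ± 8.24 in yellowed shoots. MYB114 (Cha07g000740), named after a close relative of MYB75, had 180, 208 and 190 counts against 204, 116 and 116 counts. Its means were 12.4 ± 0.146 and 9.51 ± 3.55 CPM, the groups overlapped and it was not called (log2 change -0.38 ± 0.23, adjusted p = 0.263). Without low-temperature replicate 1, the highest of its group, MYB114 was called lower (edgeR, adjusted p = 0.0305).

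The malonyltransferase has 2 same-name gene models, neither of them tested: ChaUn10205.1 had 0, 0 and 1 counts at high and 9, 4 and 0 at low temperature, and Cha08g012610 had none in any library. Of the 12 other loci named as malonyltransferases or as an anthocyanin acyltransferase, 3 were tested and none was called (edgeR, median log2 change 0.36), and 0 had an unadjusted p under 0.05 and 0 were called by DESeq2. Anthocyanin 5-aromatic acyltransferase (Cha05g008950), which attaches aromatic acids to the pigment, had 29.3 ± 3.10 and 33.7 ± 3.07 CPM (adjusted p = 0.364). Phenolic glucoside malonyltransferase 2 (Cha01g022210) had 3.81 ± 0.356 and 4.89 ± 0.726 CPM (adjusted p = 0.392). A malonyltransferase named for the anthocyanin 5-O-glucoside in Arabidopsis (Cha01g022320) had 0.761 ± 0.388 and 1.04 ± 0.404 CPM (adjusted p = 0.65). The malonyltransferase described here made up 80.0% ± 1.46 of all counts under malonyltransferase names in green shoots and 34.9% ± 0.618 in yellowed shoots.

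**Figure D2:**
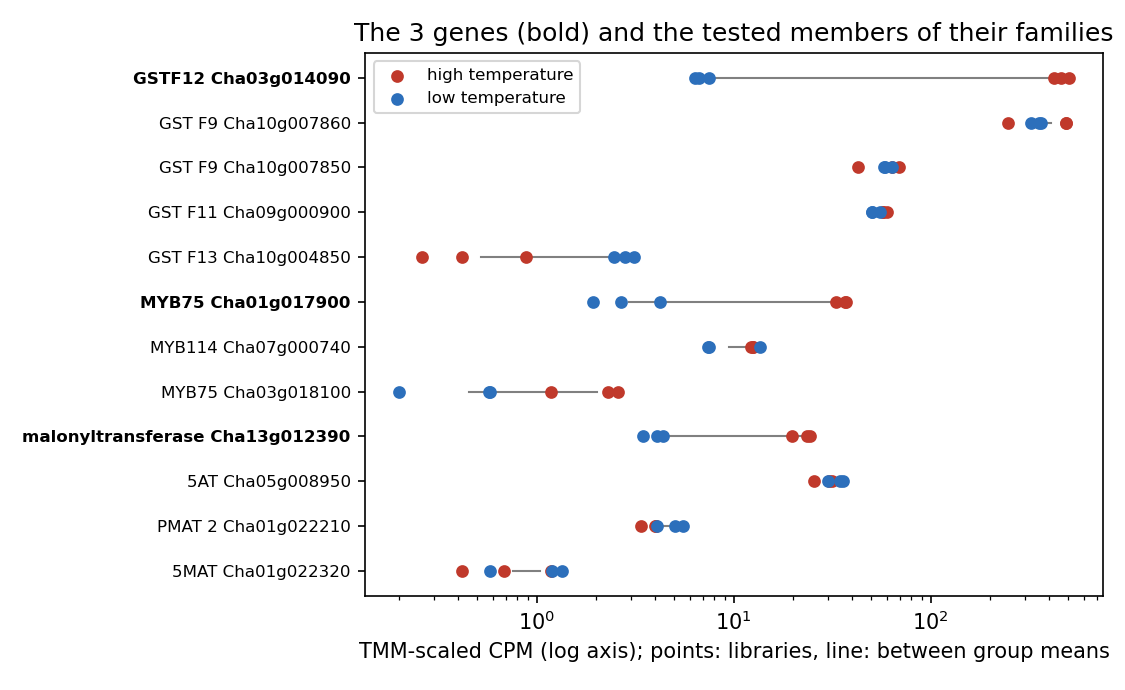
TMM-scaled CPM by library, on a log axis, of the 3 genes in bold and the tested members of their families; grey lines join the group means. GST is glutathione S-transferase, 5AT anthocyanin 5-aromatic acyltransferase, PMAT phenolic glucoside malonyltransferase and 5MAT the malonyltransferase named for anthocyanidin 5-O-glucoside; among the relatives the MYB75-named model Cha03g018100 fell and F13 rose.

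Late anthocyanin enzymes are dihydroflavonol 4-reductase (DFR), leucoanthocyanidin dioxygenase (ANS) and the glucosyltransferases, and of 22 tested members 1 fell and 2 rose, or 4.55% and 9.09%, close to the background. Their median log2 change was 0.22, above 0 under each of 3 scalings. The most abundant DFR (Cha03g015810), which reduces dihydroflavonols, had 278 ± 31.5 and 319 ± 8.98 CPM and was not called (adjusted p = 0.365). A minor DFR (Cha04g001890) fell from 9.18 ± 1.26 to 5.82 ± 0.429 CPM (adjusted p = 0.0414). A glucosyltransferase acting on the pigment's sugar (Cha07g010900) rose from 10.1 ± 0.407 to 15.6 ± 3.55 CPM (adjusted p = 0.0317), and a flavonoid 3-O-glucosyltransferase (Cha05g008360) rose from 2.76 ± 0.941 to 5.43 ± 1.52 CPM (adjusted p = 0.0434). These 3 calls were each lost under 7 or 8 of 15 alternatives, with an adjusted p of up to 0.154, 0.219 and 0.183. The main ANS model (Cha14g007280), named after its values were seen, had 53.6 ± 10.4 and 66.0 ± 1.13 CPM (adjusted p = 0.167).

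Upstream, 2 of 14 entry enzymes fell and 1 rose, with a median of -0.03. Over all tested gene models 9.65% fell and 9.27% rose. Phenylalanine ammonia-lyase commits phenylalanine to the pathway, and its most abundant model (Cha13g004970) had 629 ± 90.3 and 673 ± 72.7 CPM (adjusted p = 0.73). Another (Cha08g005720) fell from 51.1 ± 4.39 to 26.9 ± 3.44 CPM (adjusted p = 0.000289), and Cha01g002680 rose from 64.1 ± 3.32 to 93.4 ± 10.7 CPM (adjusted p = 0.00734, but 0.0665 without low-temperature replicate 3). The main 4-coumarate--CoA ligase (Cha08g000420), which activates coumaric acid, fell from 344.9 ± 74.6 to 221 ± 17.3 CPM (adjusted p = 0.0109). That call was lost under 4 of 15 alternatives, among them without high-temperature replicates 1 or 3 or low-temperature replicate 2, with an adjusted p of up to 0.0833.

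Of 16 early flavonoid enzymes 1 fell and 1 rose, with a median of -0.11. That is 6.25% each, beside 9.65% lower and 9.27% higher over all tested gene models. Flavanone 3-hydroxylase Cha01g016660 had 22.5 ± 9.92 CPM at high temperature and fell to 5.91 ± 1.96 CPM (log2 change -1.93 ± 0.33, adjusted p = 0.00223). It is the minor model of its step, since Cha09g001340 held 96.7% of that step's level at high and 99.0% at low temperature. A flavonoid 3'-monooxygenase outside the annotated gene models (sequence 12, 13170779 to 13184570, minus strand) rose from 8.63 ± 1.18 to 14.2 ± 2.07 CPM (adjusted p = 0.0159, but 0.0761 without low-temperature replicate 1). The most abundant chalcone synthase (Cha05g005000), the entry to the flavonoids, had 2143 ± 739 and 1925 ± 197 CPM (adjusted p = 0.689), and a chalcone isomerase (Cha01g006150) 613 ± 133 and 481 ± 57.6 CPM (adjusted p = 0.183). Without high-temperature replicate 2, which had the lowest chalcone synthase level, 5 of the 16 fell and 1 rose.

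Other branches draw on the same intermediates. Leucoanthocyanidin reductase (LAR) makes catechin, anthocyanidin reductase (ANR) makes epicatechin from the pigment's own precursor, and flavonol synthase (FLS) makes flavonols. Of 8 tested members 5 fell and none rose (edgeR; 0 rises also by DESeq2 and at an unadjusted p under 0.05), with a median of -0.60, beside 9.65% lower and 9.27% higher over all tested gene models. LAR Cha10g012330 fell from 40.6 ± 6.51 to 17.7 ± 5.33 CPM (adjusted p = 0.000494) and LAR Cha03g011900 from 22.3 ± 1.88 to 13.8 ± 2.04 CPM (adjusted p = 0.00769). ANR Cha07g006420 fell from 224 ± 5.61 to 143 ± 7.06 CPM (adjusted p = 0.00221). It is the minor model of its step, since Cha07g013180 held 75.7% of that step's level at high and 80.2% at low temperature. Cha07g013180, named after its values were seen, had 696 ± 9.64 and 577 ± 38.0 CPM and was not called (adjusted p = 0.222). The main LAR model (Cha06g019400), named after its values were seen, fell from 1403 ± 29.4 to 952 ± 94.4 CPM (adjusted p = 0.0213). The most abundant FLS (Cha04g009620) had 1624 ± 147 and 1257 ± 55.8 CPM and was not called (adjusted p = 0.128). A minor FLS (ChaUn4699.1), named after its values were seen, fell from 37.2 ± 2.53 to 22.0 ± 7.03 CPM (adjusted p = 0.00822). That call was lost under 3 of 15 alternatives (adjusted p of up to 0.0695). Without low-temperature replicate 2 only 2 of the 8 were called lower, while lower calls over all gene models went from 2582 to 1339. Without low-temperature replicate 1 the number was 3 of 8, and the main LAR lost its call without any 1 library other than high-temperature replicate 2 (adjusted p of up to 0.104).

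**Figure D3:**
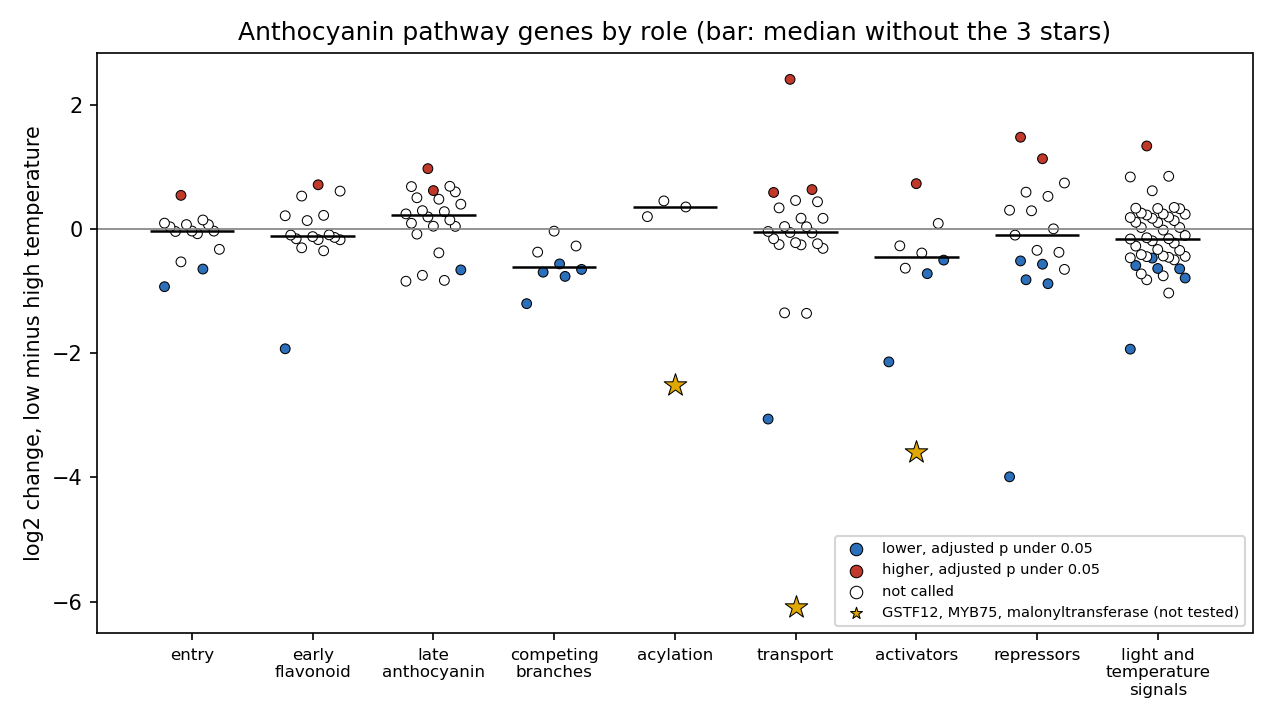
Log2 change, low minus high temperature, of each tested gene model of the pathway by role; filled points passed an adjusted p under 0.05, bars are medians and stars are GSTF12 (transport), MYB75 (activators) and the malonyltransferase (acylation), which were not tested. The stars lie at -6.08, -3.59 and -2.51, while the medians of the lists run from -0.60 for the competing branches to 0.36 for acylation.

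Because reads may be split among similar gene models, the CPM of all models of an enzyme step were also summed per library. The late steps gave no lower level in the cold in any library. Summed DFR had 398, 339 and 388 CPM at high and 429, 404 and 414 CPM at low temperature. Summed ANS had 76.5, 53.4 and 74.7 CPM against 79.6, 78.8 and 81.3 CPM, and the 3-O-glucosyltransferases (UFGT) had 49.6, 31.1 and 48.1 CPM against 52.4, 52.3 and 56.3 CPM. Each of these 3 late steps was higher in every low-temperature library than in any high-temperature library. By contrast LAR was lower throughout, at 1492, 1427 and 1479.7 CPM against 892, 989 and 1069.85 CPM, a log2 ratio of -0.58. ANR and FLS were also lower without overlap, with log2 ratios of -0.35 and -0.37, as was 4-coumarate--CoA ligase with -0.49. Exact two-sided permutation tests gave p = 0.1 for these 7 of 14 steps, the smallest that 3 against 3 libraries allow, and an adjusted p of 0.2 over the 14 steps. Among all tested gene models the groups did not overlap in 36.5%.

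The other 7 steps overlapped between temperatures, from phenylalanine ammonia-lyase (1072 ± 136 and 1142 ± 127 CPM) to chalcone synthase (4622 ± 1325 and 4357 ± 247 CPM). High-temperature replicate 2 had the lowest level of its group in 13 of 14 steps, the exception being ANR, and for chalcone synthase it had 3117 CPM against 5612 and 5138 CPM. Without it 10 steps were lower without overlap, 3 were higher and 1 overlapped. With 2 against 3 libraries the groups are apart more often by construction, and 48.2% of all tested gene models then did not overlap, 24.1% in each direction. The chalcone synthase log2 ratio was -0.30 in place of -0.09. The late steps were then nearer to 0, at 0.08 for DFR, 0.08 for ANS and 0.14 for UFGT, against 0.15, 0.23 and 0.32 with all libraries. The 3 late steps differed between temperatures by at most 1.25-fold in sum.

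**Figure D4:**
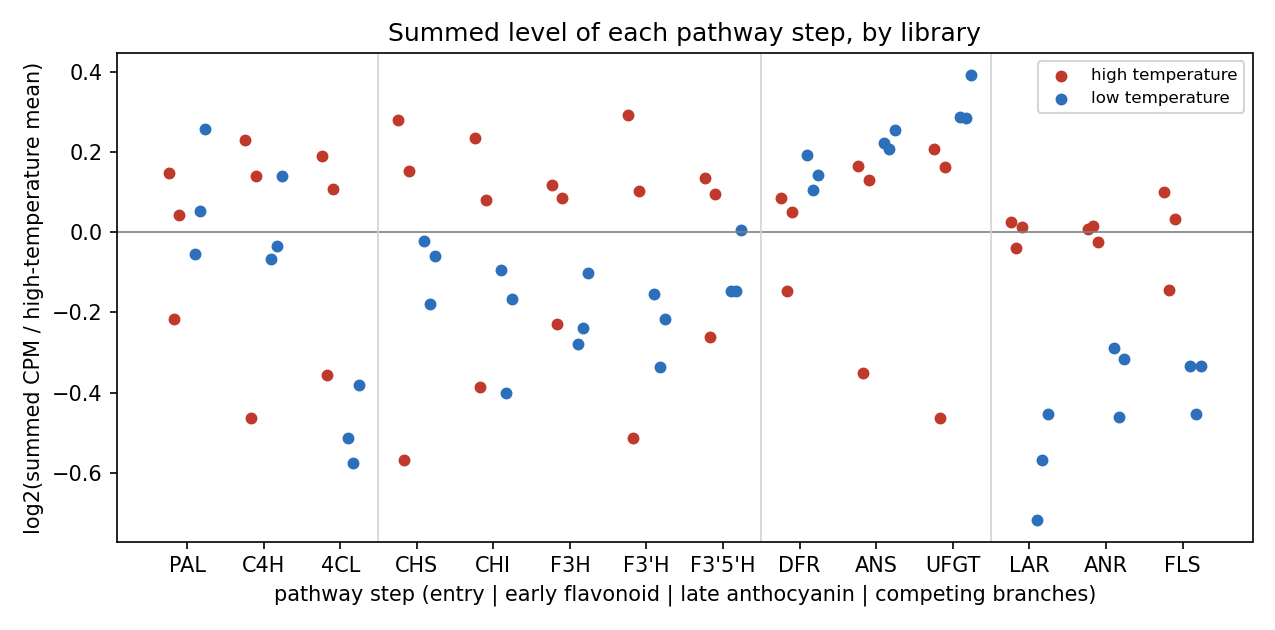
Summed level of each enzyme step in each library as log2 of its ratio to the high-temperature mean, in pathway order, red for high and blue for low temperature. PAL is phenylalanine ammonia-lyase, C4H trans-cinnamate 4-monooxygenase, 4CL 4-coumarate--CoA ligase, CHS chalcone synthase, CHI chalcone isomerase, and F3H, F3'H and F3'5'H the flavonoid hydroxylases; LAR, ANR, FLS and 4CL were lower without overlap and DFR, ANS and UFGT higher.

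Other transport genes moved in both directions. Of 22 tested members other than GSTF12, which include the class F relatives above, 1 fell and 3 rose, F13 among them. These are 4.55% and 13.6%, beside 9.65% and 9.27% over all tested gene models. The faller was a MATE-type membrane transporter, DETOXIFICATION 40 (Cha07g014110), from 133, 128 and 120 counts to 16, 17 and 12 counts. The means were 8.20 ± 0.732 and 0.977 ± 0.173 CPM (log2 change -3.06 ± 0.30, adjusted p = 3.08e-06). DETOXIFICATION 41, known in Arabidopsis as TRANSPARENT TESTA 12, carries flavonoids into the vacuole, and 2 of its models rose. Cha05g016280 rose from 35.8 ± 4.11 to 55.7 ± 13.2 CPM (adjusted p = 0.0106), and Cha13g006110, named after its values were seen, from 22.5 ± 3.92 to 33.8 ± 2.94 CPM (adjusted p = 0.0142). The first of these calls was lost without high-temperature replicate 3 or low-temperature replicate 3 (adjusted p of up to 0.114) and the second without low-temperature replicate 2 (0.089).

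Among the genes listed as activators alongside MYB75 in Arabidopsis, 3 of 8 tested members fell and 1 rose, with a median of -0.44. The rarer MYB75-named model above was among those that fell. The shares over all tested gene models were 9.65% lower and 9.27% higher. The bHLH factor GLABRA 3 binds MYB75 in a shared complex. A model of that name (Cha06g008100) fell from 1250, 1628 and 1240 counts to 983, 707 and 772 counts. The means were 88.1 ± 8.53 and 53.6 ± 10.6 CPM (log2 change -0.72 ± 0.15, adjusted p = 0.00281). The neighbouring model of the same name (Cha06g008090), named after its values were seen, fell from 52.3 ± 4.74 to 37.0 ± 8.15 CPM (adjusted p = 0.0321), and whether both belong to a single gene was not tested. Its call was lost without high-temperature replicate 3 or low-temperature replicates 2 or 3 (adjusted p of up to 0.191). The other tested GLABRA 3 models, also named after their values were seen, were not called. Cha14g008120 had 47.5 ± 8.67 and 39.5 ± 1.07 CPM (adjusted p = 0.216), and Cha12g001590 had 6.20 ± 1.08 and 4.02 ± 2.05 CPM (adjusted p = 0.185). Without low-temperature replicate 1, 4 of the 8 listed activators were called lower. TRANSPARENT TESTA GLABRA 1 (Cha01g006410), the WD40 partner, also named after its values were seen, had 55.4 ± 11.9 and 59.0 ± 10.54 CPM (adjusted p = 0.752). The riser was Cha13g009920, whose deposited name is transcription repressor MYB5, although the list counted it as an activator. MYB5 is a MYB of seed coat flavonoids in Arabidopsis. The level of Cha13g009920 rose from 28.2 ± 9.91 to 46.8 ± 4.07 CPM (adjusted p = 0.0272, but up to 0.101 without low-temperature replicates 2 or 3).

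Repressors of the pathway also moved both ways, with 5 of 17 lower, 2 higher and a median of -0.10 (3 lower without low-temperature replicate 1 and 2 without low-temperature replicate 2). These are 29.4% lower and 11.8% higher, beside 9.65% and 9.27% over all tested gene models. A model named after a Myb-related protein of snapdragon (Cha03g012460), a repressor of phenolic metabolism, fell from 98, 138 and 107 counts to 0, 14 and 7 counts. The means were 7.33 ± 0.849 and 0.45 ± 0.447 CPM (log2 change -3.99 ± 0.53, adjusted p = 0.000155). The other tested models of the same name, named after their values were seen, were more abundant and not called. Cha06g000930 had 41.4 and 38.7 CPM (adjusted p = 0.701) and Cha10g010790 had 26.8 and 32.9 CPM (adjusted p = 0.196). Cha02g018400 had 26.8 and 21.2 CPM (adjusted p = 0.14). MYB3 (Cha02g000500), a repressor of phenylpropanoid genes in Arabidopsis, fell from 77.7 ± 12.0 to 42.3 ± 3.98 CPM (adjusted p = 0.000438). The single-repeat MYB ETC1, at 79770341 to 79771851 on the minus strand of sequence 5, fell from 256 ± 40.1 to 173 ± 14.7 CPM (adjusted p = 0.0126), a call lost without high-temperature replicate 1 or low-temperature replicates 1 or 2 (adjusted p of up to 0.0823). In contrast LBD37 (Cha13g011490), a nitrogen-responsive repressor of anthocyanin synthesis in Arabidopsis, rose by 1.48 ± 0.32 on the log2 scale, from 4.26 ± 2.05 to 11.9 ± 4.02 CPM (adjusted p = 0.00474). LBD38 (ChaUn10114.2), of the same kind and named after its values were seen, rose from 13.3 ± 4.12 to 29.1 ± 8.66 CPM (adjusted p = 0.00856).

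Of 47 tested light and temperature signalling genes 6 fell and 1 rose, with a median of -0.15. HY5 (Cha12g007340), a light-response bZIP factor that binds anthocyanin gene promoters in Arabidopsis, had 49.5 ± 4.02 CPM at high temperature and fell to 28.7 ± 3.48 CPM (log2 change -0.79 ± 0.14, adjusted p = 0.001). A model named UVR8 (Cha08g013480), the UV-B receptor, rose from 5.65 ± 1.08 to 14.3 ± 1.90 CPM (adjusted p = 0.000343), and another (ChaUn31286.1) fell from 39.97 ± 4.66 to 25.8 ± 2.24 CPM (adjusted p = 0.00578). The most abundant UVR8-named model (Cha01g014810) had 147 ± 6.62 and 185 ± 23.9 CPM (adjusted p = 0.0964). With 10 loci under this name, not all need be receptors. Without high-temperature replicate 2, 6 members of the list rose in place of 1, and without high-temperature replicate 1 or low-temperature replicates 2 or 3 only 3 fell. Over all role lists, without the 3 genes themselves, 24 of 157 tested gene models fell and 11 rose, or 15.3% and 7.01%, beside 9.65% and 9.27% over all tested gene models. Without low-temperature replicate 2, 12 of the listed gene models fell, and lower calls over all gene models went from 2582 to 1339 as well.

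Neighbours on the assembly were taken by position alone and are given as a description. Within 500 kb of GSTF12, 2 of 11 tested loci fell and none rose (edgeR; 0 rises also by DESeq2 and at an unadjusted p under 0.05), with log2 changes from -0.70 to 0.62. The nearest gene model on one side (Cha03g014040, a SET domain protein, 103246 bases away) had 19.0 ± 1.75 and 19.3 ± 1.75 CPM (adjusted p = 0.943). On the other side Cha03g014100, an acyl-CoA ligase 227809 bases away, had 139 ± 13.6 CPM at high temperature and fell to 85.2 ± 8.21 CPM (log2 change -0.70 ± 0.13, adjusted p = 0.00156). Around MYB75 none of 3 tested loci was called (0 by edgeR, by DESeq2 and at an unadjusted p under 0.05), and its nearest gene model (Cha01g017910, 2763 bases away) had 0 to 4 counts. Over all tested gene models 9.65% fell and 9.27% rose, while around the malonyltransferase 3 of 10 fell and 1 rose. Its neighbour Cha13g012380, a DEAH-type helicase 48753 bases away, fell from 41, 33 and 21 counts to 7, 10 and 10 counts (log2 change -1.79 ± 0.51, adjusted p = 0.0197), a call lost under 7 of 14 alternatives, among them without high-temperature replicate 1 or any 1 low-temperature library (adjusted p of up to 0.0949).

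**Figure D5:**
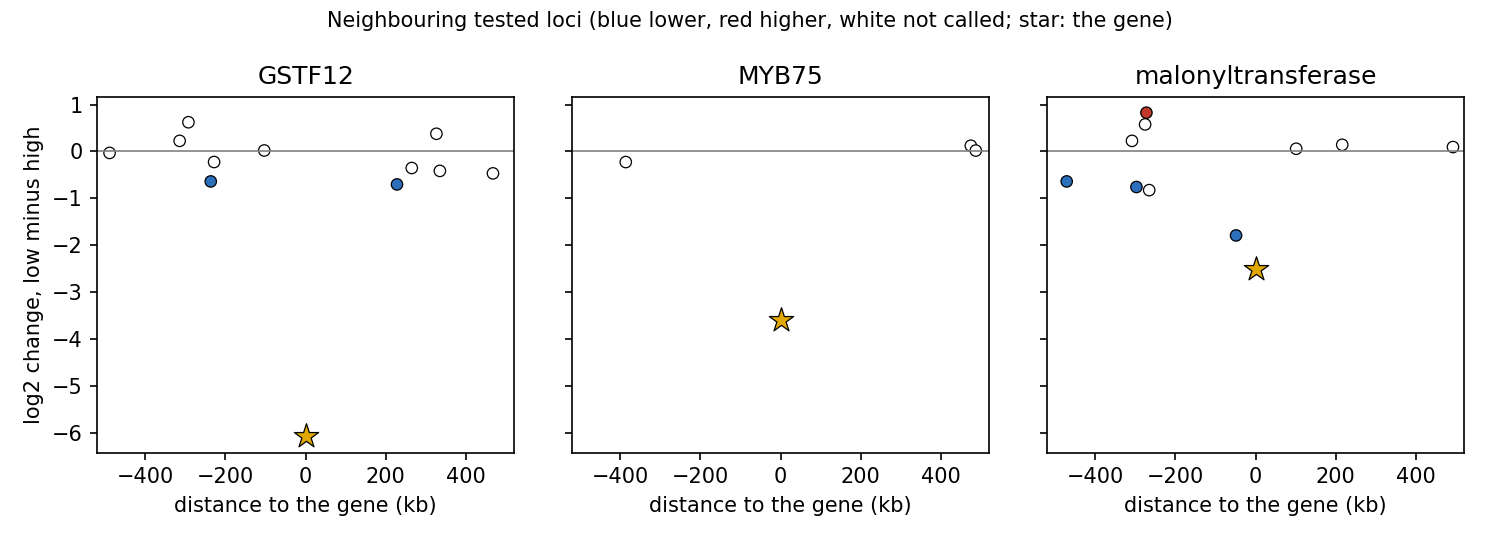
Log2 change, low minus high temperature, of tested loci within 500 kb on either side of each gene, against distance in kb from the gene (star); blue and red points passed the test as lower and higher. Neighbours lay between -1.79 and 0.83. The stars at -6.08, -3.59 and -2.51 were below all of them, which follows from choosing the 3 genes for large falls.

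Genes with the most similar profile were named by the smallest root mean square distance between centred log2 CPM profiles over the 6 libraries, among 11969 gene models with a protein name and at least 10 CPM in the higher group. This likeness rests mostly on the difference between the same groups and is a description. Nearest to GSTF12 were high affinity nitrate transporter 2.4 (Cha11g004520, distance 0.58), with 529, 312 and 315 counts against 3, 0 and 3 counts, and an enzyme named S-norcoclaurine synthase 1 (Cha14g005370, distance 0.73), with 179, 172 and 139 counts against 1, 7 and 3 counts. Then came a ribosome-inactivating lectin named nigrin b (ChaUn28410.2, distance 1.19) and MYB75 itself (distance 1.27).

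MYB75 was most like that same nigrin b model, at a distance of 0.31, with 31.1 ± 2.18 and 2.28 ± 1.08 CPM. The next were a more abundant nigrin b (Cha02g006540, distance 0.46, 189 ± 15.4 and 17.03 ± 5.21 CPM), thioredoxin H2 (ChaUn7933.5, distance 0.49), a disulfide-reducing protein, and a heat shock cognate 70 kDa chaperone (Cha04g016200, distance 0.53). The malonyltransferase had closer matches. A dioxygenase of methionine salvage (ChaUn18173.1, distance 0.12) had 23.0 ± 3.48 and 3.93 ± 0.086 CPM. Nitrate reductase (Cha04g009830, distance 0.14), which reduces nitrate to nitrite, had 2196, 1940 and 2083 counts against 331, 377 and 405 counts. Peroxidase 72 (ChaUn7629.2, distance 0.26) and beta-amyrin 28-oxidase (Cha09g003240, distance 0.28), an enzyme of triterpene synthesis, followed. Between the 3 genes the distances were 0.69 for MYB75 and the malonyltransferase, 1.27 for GSTF12 and MYB75, and 1.797 for GSTF12 and the malonyltransferase.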

How the data were processed

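Total RNA of 6 libraries, 3 per temperature, was sequenced. The authors deposited raw counts per gene model and, for the same loci, FPKM. Per the submitters' processing notes the authors used HISAT2 2.0.5, CASAVA 1.8.2 and fastp, and also featureCounts 1.5.0-p3, R 4.1.0 and DESeq2 1.20.0, whose roles are not stated there. For genome build and strand setting nothing is stated (not given in the sources used here), and antisense reads cannot be told apart. Names are the protein names of the deposited annotation, and coordinates are as deposited. The deposited FPKM equal count over length over 1 divisor per library, 0.977 to 1.13 times its total count. Lengths of all 33556 annotated gene models are multiples of 3, that is, coding lengths.

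The count test was edgeR's quasi-likelihood test (edgeR 4.0.16, R 4.3.3, robust, TMM, temperature group in the model without covariates). FilterByExpr kept 26767 gene models at a minimum count of 10, over which p-values were adjusted by Benjamini-Hochberg. SE was the log2 change divided by the root of F. On simulated counts for low against high temperature, with 26767 gene models, 20% of 50 genes changed 1.5-fold were called, 66% at 2-fold, 96% at 4-fold and 12 of 26567 unchanged genes. No replicates were merged, since chi-square per gene between replicates was 5.40 to 26.5 on average. Alternatives were other scalings and filters, DESeq2 1.42.0, limma 3.58.1 on log2 FPKM (pseudocount 1 or 0.1, minimum mean 0.5 or none), a replicate block and each library left out.

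The members and lists were chosen with earlier results of these data known. Lists were matched on protein name. Genes named were the 3 with the smallest p and the most abundant of each list and family, same-name models, nearest neighbours and the 4 most similar profiles per gene.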

Additional observations from a re-analysis of the deposited data

How the results depend on the processing

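The replicate numbers do not pair the libraries: same-numbered libraries' deviations from their group means correlated at -0.011, 0.040 and -0.0094. With the replicate number as a block the log2 changes were -6.08, -3.62 and -2.51 for GSTF12, MYB75 and the malonyltransferase, and 4805 gene models were called against 5062 (25 pathway genes lower, 13 higher).

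On log2(FPKM + 1), with or without the FPKM filter, the change of GSTF12 was -5.91, that of MYB75 -3.26 (the furthest from its value on counts) and that of the malonyltransferase -2.28, since the pseudocount shrinks low values. Unfiltered FPKM called 2867 gene models (1482 lower, 1385 higher) and 4 pathway genes higher in place of 11. A minimum count of 30 left the same-name MYB75 model untested, so that the numbers of same-name and of family members called lower were 0 in place of 1. Without 1 library the changes ran from -6.15 to -6.02, -3.94 to -3.36 and -2.59 to -2.41 for the 3 genes. The number called ran from 2606 to 5621, lower calls from 1337 to 2729 and higher calls from 1267 to 2892. Pathway genes called lower ran from 12 to 30 and higher from 8 to 16, competing-branch genes lower from 2 to 6, same-name models lower from 0 to 1 and family members lower from 1 to 2. The cause of these shifts was not tested.

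Uncalled genes with small changes turned sign: without 1 library Cha03g014040 ran from -0.0503 to 0.0905 (-0.0235 with library totals), Cha05g005000 from -0.413 to 0.0361, Cha10g007850 from -0.136 to 0.1791, Cha13g004970 from -0.0071 to 0.1972 and ChaUn5671.6 from -0.1821 to 0.0343. Stability was checked for 58 genes of the lists, families and nearest neighbours and for some outside the lists, not all of them named above. The genes with the most similar profiles and the Casparian strip proteins were not among them. Of these 58 genes 40 were called and 16 of those stayed called under each alternative that tested them. A count of 3 limits statements below 0.204 CPM.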

Other observations

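Genes named for anthocyanins but outside the lists above were looked at after their names were seen. Of 3 gene models named anthocyanin regulatory C1 protein, the maize MYB activator, Cha14g006440 fell from 84.3 ± 6.05 to 59.2 ± 9.11 CPM (adjusted p = 0.0148, lost without high-temperature replicate 3 or low-temperature replicates 2 or 3, up to 0.118). ChaUn5671.6 had 46.6 ± 7.31 and 43.3 ± 5.24 CPM (adjusted p = 0.677) and Cha14g014190 had 1.52 ± 1.01 and 1.10 ± 0.429 CPM (adjusted p = 0.645). A flavonoid 3',5'-methyltransferase (Cha06g020710), named after a grapevine enzyme that methylates anthocyanins, fell from 49, 98 and 65 counts to 28, 18 and 6 counts (log2 change -1.98 ± 0.44, adjusted p = 0.00477). ANTHOCYANINLESS 2 (Cha02g002380), an epidermal homeobox factor needed for subepidermal pigment in Arabidopsis, rose by 0.97 ± 0.13 on the log2 scale, from 52.0 ± 3.94 to 102 ± 10.6 CPM (adjusted p = 9.73e-05), while the other model of that name (Cha08g002620) had 7.58 ± 1.32 and 9.79 ± 1.74 CPM (adjusted p = 0.261).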
